A study of Mus musculus with 15 samples.

Results

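The Kcnq1 imprinted cluster was followed here as 10 genes of mouse chromosome 7 in 5 mouse embryonic stem (ES) cell lines. The members were fixed by name: Ascl2, Cd81, Tssc4, Kcnq1, Kcnq1ot1, Cdkn1c, Slc22a18, Phlda2, Nap1l4 and Osbpl5, which is also their order along the chromosome in the RefSeq annotation. All probe sets that the array annotation assigns to these genes alone were taken, 18 of 45101 on the Affymetrix mouse expression array, and they stand for 10 of the 18193 genes that could be named. A probe set entered the tests where at least 3 arrays reached 3.864, the median of all deposited log2 values, and 14 of the 18 did, with at least 1 for each of the 10 members.

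Each line was measured on 3 arrays of total RNA, 15 arrays in all. NmB6D2 is a fertilised line from C57BL6 females mated with DBA2 males. R1 is a fertilised line bought from a repository, from a cross of the substrains 129S1/SvImJ and 129X1/SvJ. OpB6D2 is parthenogenetic, from naturally ovulated and then activated oocytes of B6D2F1 hybrids. FpB6D2 and FpB6CBA are parthenogenetic lines from oocytes grown in cultured preantral follicles of 2-week-old females, of B6D2F1 and of B6CBAF1 hybrids (C57BL6 by CBA/ca). Each group is thus 1 cell line, so the line itself cannot be told apart from its mode of origin or its cross. Each p-value for differences among lines reflects how far arrays vary within lines, pooled over all lines, which may be technical variation alone. The comparison of parthenogenetic with fertilised lines was made on line means, so its p-values reflect how far lines of the same origin vary.

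In this cluster the long noncoding RNA Kcnq1ot1 is transcribed from the paternal chromosome only, antisense to Kcnq1, from a promoter inside the imprinting control region. On the maternal chromosome that region is methylated in the oocyte, Kcnq1ot1 is silent, and the neighbouring protein-coding genes can be expressed. Cdkn1c, Phlda2 and Slc22a18 are known as maternally expressed in many tissues, while the imprinting of Ascl2, Cd81, Tssc4 and Osbpl5 is best known from the placenta. Parthenogenetic cells hold maternal genomes only.

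The promoters of the 3 members that differed most between lines among those with a RefSeq promoter entry are shown because Kcnq1ot1 on the one hand, and Ascl2 and Phlda2 on the other, are the sides of the cluster that imprinting sets against each other. Of the 10 members, 7 had an entry, and Cdkn1c, Kcnq1 and Nap1l4 had none. Each run holds the 250 bases before the transcript start (GRCm38.p6, minus strand, 5′ to 3′). Capitals mark the CCAAT box with the letters CCAAT, the GC box with the letters GGGCGG and the TATA box with the letters TATAAA, each searched on both strands, and no match overlaps another.
Kcnq1ot1, chr7:143296548-143296797: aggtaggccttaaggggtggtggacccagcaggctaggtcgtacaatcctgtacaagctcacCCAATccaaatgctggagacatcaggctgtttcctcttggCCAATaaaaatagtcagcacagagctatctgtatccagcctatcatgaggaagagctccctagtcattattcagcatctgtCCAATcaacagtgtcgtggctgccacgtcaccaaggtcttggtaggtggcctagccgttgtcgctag
Ascl2, chr7:142969265-142969514: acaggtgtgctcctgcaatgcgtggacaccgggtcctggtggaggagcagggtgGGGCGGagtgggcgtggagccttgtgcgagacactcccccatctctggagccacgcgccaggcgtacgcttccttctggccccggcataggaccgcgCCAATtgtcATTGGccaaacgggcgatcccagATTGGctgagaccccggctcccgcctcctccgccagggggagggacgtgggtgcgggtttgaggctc
Phlda2, chr7:143502525-143502774: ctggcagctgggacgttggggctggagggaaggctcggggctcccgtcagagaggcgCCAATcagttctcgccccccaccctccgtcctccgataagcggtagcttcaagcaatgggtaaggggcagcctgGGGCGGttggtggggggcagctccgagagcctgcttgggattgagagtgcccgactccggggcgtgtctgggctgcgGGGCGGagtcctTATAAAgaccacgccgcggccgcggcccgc

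The Kcnq1ot1 window held 3 CCAAT matches, which start 188, 148 and 67 bases before the transcript, and neither of the other motifs. The Ascl2 window also held 3 CCAAT matches, at 99, 90 and 67 bases, with 1 GGGCGG at 196 bases. The Phlda2 window held 1 CCAAT at 193 bases, 2 GGGCGG at 119 and 42 bases and 1 TATAAA at 30 bases. Among 32851 RefSeq windows of the same length, 33.8% held CCAAT, 32.7% GGGCGG and 12.4% TATAAA in either orientation. CpG dinucleotides numbered 5 in the Kcnq1ot1 window, 19 in that of Ascl2 and 21 in that of Phlda2, where 44.4%, 80.3% and 83.7% of all windows had fewer and the median window had 6.

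A gene was called where its adjusted p was under 0.05 and its line means differed at least 2-fold, in a limma fit over all 12813 tested genes with Benjamini-Hochberg adjustment. Over the 5 lines together, 4 of the 10 members were called by the F-test, beside 32.9% of all tested genes. They were Phlda2 (line means spread over 4.94 log2 units, adjusted p = 1.1e-14), Cdkn1c (2.36, adjusted p = 8.9e-11), Ascl2 (2.20, adjusted p = 4.6e-08) and Kcnq1ot1 (1.43, adjusted p = 2.1e-07). The median spread of line means was 0.87 in the members and 0.74 in all tested genes. The members called were not high in the same lines, as the plot of all arrays shows.

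**Figure D1:**
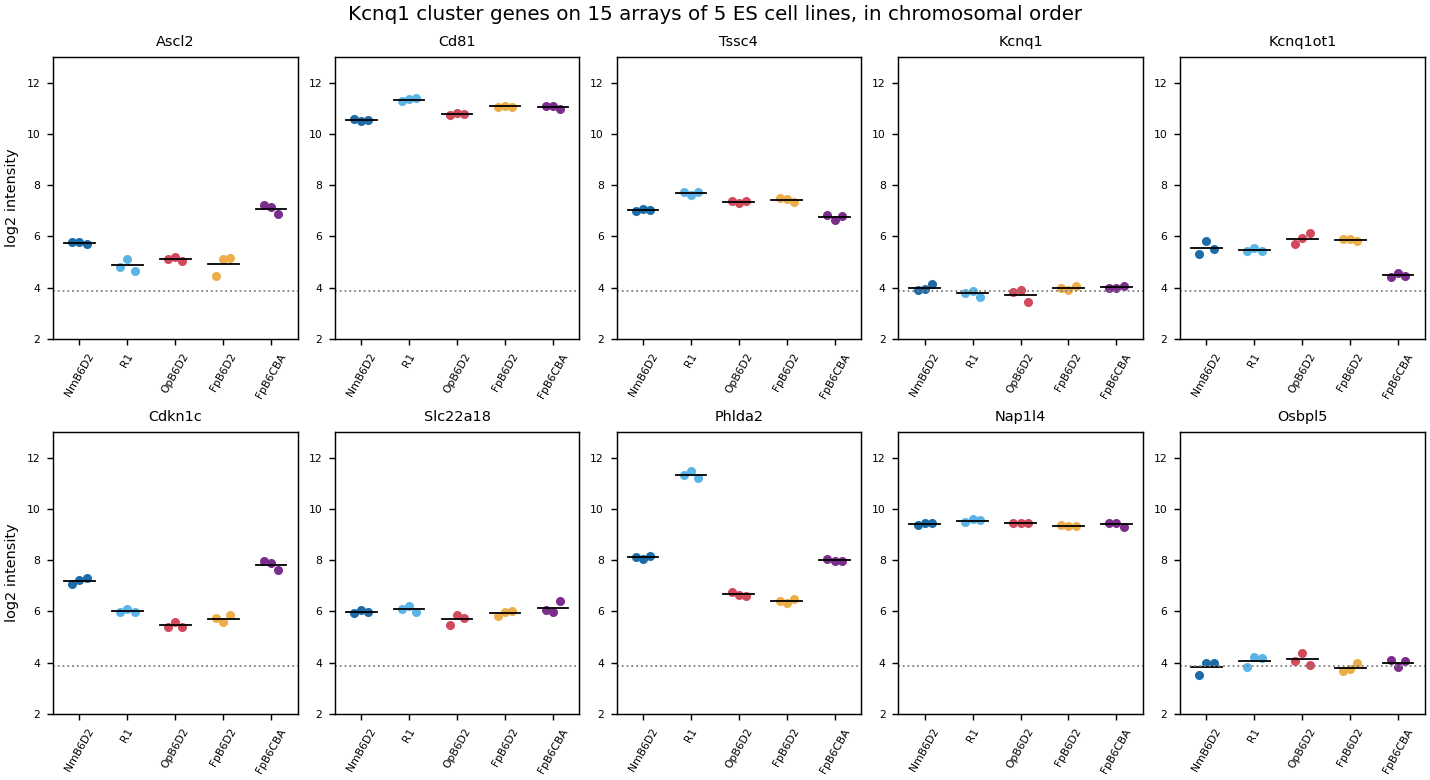
Log2 intensity (vertical axis) of the 10 cluster genes on each of the 15 arrays, by line (horizontal axis), in chromosomal order; points are arrays, bars are line means of 3 arrays and the dotted line is the filter value of 3.864. Cdkn1c and Ascl2 were highest in FpB6CBA, Phlda2 was highest in R1, and Kcnq1ot1 was lowest in FpB6CBA; each gene has its own probes, so levels are not comparable between panels.

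Cdkn1c, an inhibitor of cyclin-dependent kinases that holds cells out of the cycle, was high in 2 lines and low in 3. Its log2 intensity was 7.96, 7.88 and 7.61 on the FpB6CBA arrays and 7.09, 7.24 and 7.29 on the NmB6D2 arrays. It was 5.97, 6.08 and 5.98 in R1, 5.73, 5.60 and 5.85 in FpB6D2 and 5.40, 5.60 and 5.38 in OpB6D2. The arrays of FpB6CBA and NmB6D2 lay above all arrays of the other lines, and only FpB6D2 and OpB6D2 overlapped.

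Relative to the fertilised NmB6D2 line, Cdkn1c in OpB6D2 stood 3.36-fold below (-1.75 ± 0.10 SE on the log2 scale, n = 3 per line, adjusted p = 5e-09). It was 2.79-fold lower in FpB6D2 (-1.48 ± 0.10, adjusted p = 1.2e-08) and 2.29-fold lower in R1 (-1.20 ± 0.10, adjusted p = 8.9e-08). The other fertilised line was therefore among the low lines, and the third parthenogenetic line was not. FpB6CBA exceeded OpB6D2 by 5.13-fold (2.36 ± 0.10, adjusted p = 1.5e-10), FpB6D2 by 4.26-fold (2.09, adjusted p = 3.8e-10) and R1 by 3.50-fold (1.81, adjusted p = 8.7e-10). Its 1.53-fold excess over NmB6D2 (0.61, adjusted p = 0.00014) was under the fold minimum.

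Phlda2, a pleckstrin homology domain protein that restrains growth of the placenta, showed the largest spread of the 10 members. On the R1 arrays its log2 intensity was 11.32, 11.49 and 11.22. It was 8.14, 8.06 and 8.15 in NmB6D2 and 8.05, 7.95 and 7.97 in FpB6CBA. It was lowest in OpB6D2, at 6.75, 6.65 and 6.61, and in FpB6D2, at 6.41, 6.32 and 6.48. The arrays thus fell into 3 levels, with R1 alone at the top and no overlap between any pair of lines.

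R1 exceeded NmB6D2 in Phlda2 by 9.36-fold (log2 difference 3.23 ± 0.07 SE, adjusted p = 1.7e-13), OpB6D2 by 25.6-fold (adjusted p = 8.4e-15), FpB6D2 by 30.7-fold (adjusted p = 4.5e-15) and FpB6CBA by 10.2-fold (adjusted p = 7.7e-14). Phlda2 was 2.73-fold lower in OpB6D2 than in NmB6D2 (-1.45 ± 0.07, adjusted p = 1.3e-09) and 3.28-fold lower in FpB6D2 (-1.71 ± 0.07, adjusted p = 1.3e-10). FpB6CBA did not pass the test against NmB6D2 (-0.13 ± 0.07, adjusted p = 0.16) and was 2.50-fold above OpB6D2 (1.32, adjusted p = 1.9e-09) and 3.01-fold above FpB6D2 (1.59, adjusted p = 2.4e-10). FpB6D2 lay 1.20-fold below OpB6D2 (-0.27, adjusted p = 0.0061), under the fold minimum.

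Ascl2, a basic helix-loop-helix transcription factor needed for the spongiotrophoblast of the placenta, was high in a single line. On its brightest probe set (1460514_s_at) the log2 intensity was 7.22, 7.14 and 6.86 in FpB6CBA and 5.79, 5.77 and 5.72 in NmB6D2. It was 5.10, 5.19 and 5.04 in OpB6D2, 4.47, 5.11 and 5.15 in FpB6D2 and 4.82, 5.13 and 4.65 in R1. FpB6CBA stood clear of every other array, NmB6D2 came next, and the other 3 lines overlapped one another.

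FpB6CBA exceeded NmB6D2 in Ascl2 by 2.49-fold (log2 difference 1.31 ± 0.16 SE, adjusted p = 1.4e-05), OpB6D2 by 3.89-fold (1.96, adjusted p = 1.4e-07), FpB6D2 by 4.47-fold (2.16, adjusted p = 4.6e-08) and R1 by 4.61-fold (2.20, adjusted p = 2.1e-08). Against NmB6D2, Ascl2 was lower by less than the fold minimum in OpB6D2 (-0.65, adjusted p = 0.0041), FpB6D2 (-0.85, adjusted p = 0.00039) and R1 (-0.89, adjusted p = 0.00024). Without R1 replicate 4 the difference of R1 reached -1.02 and was called. The neighbours in the low group, OpB6D2, FpB6D2 and R1, did not differ beyond their spread (adjusted p = 0.32 and 0.83 between consecutive lines).

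Kcnq1ot1, the noncoding RNA, ran the other way from Ascl2 and Cdkn1c in FpB6CBA. Its brighter probe set (1458161_at, Entrez gene 63830) read 4.42, 4.57 and 4.46 there on the log2 scale. It read 5.32, 5.82 and 5.49 in NmB6D2, 5.42, 5.53 and 5.42 in R1, 5.71, 5.93 and 6.12 in OpB6D2 and 5.92, 5.89 and 5.81 in FpB6D2. All 3 FpB6CBA arrays lay below all other arrays, while the 2 parthenogenetic B6D2 lines read as high as the fertilised lines or higher.

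FpB6CBA was 2.70-fold lower in Kcnq1ot1 than OpB6D2 (log2 difference -1.43 ± 0.12 SE, adjusted p = 1.2e-07) and 2.62-fold lower than FpB6D2 (-1.39, adjusted p = 1.4e-07). It was 2.09-fold lower than NmB6D2 (-1.06, adjusted p = 4.8e-06), and without NmB6D2 replicate 3 this difference was -0.92 (adjusted p = 1.4e-05) and missed the fold minimum. Against R1 the difference was -0.98 (adjusted p = 3.5e-06), just under the minimum, and it was -1.02 without FpB6CBA replicate 2. OpB6D2 and FpB6D2 were above NmB6D2 by 0.37 (adjusted p = 0.016) and 0.33 (adjusted p = 0.026), both well under 2-fold and with arrays that overlapped those of NmB6D2.

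**Figure D2:**
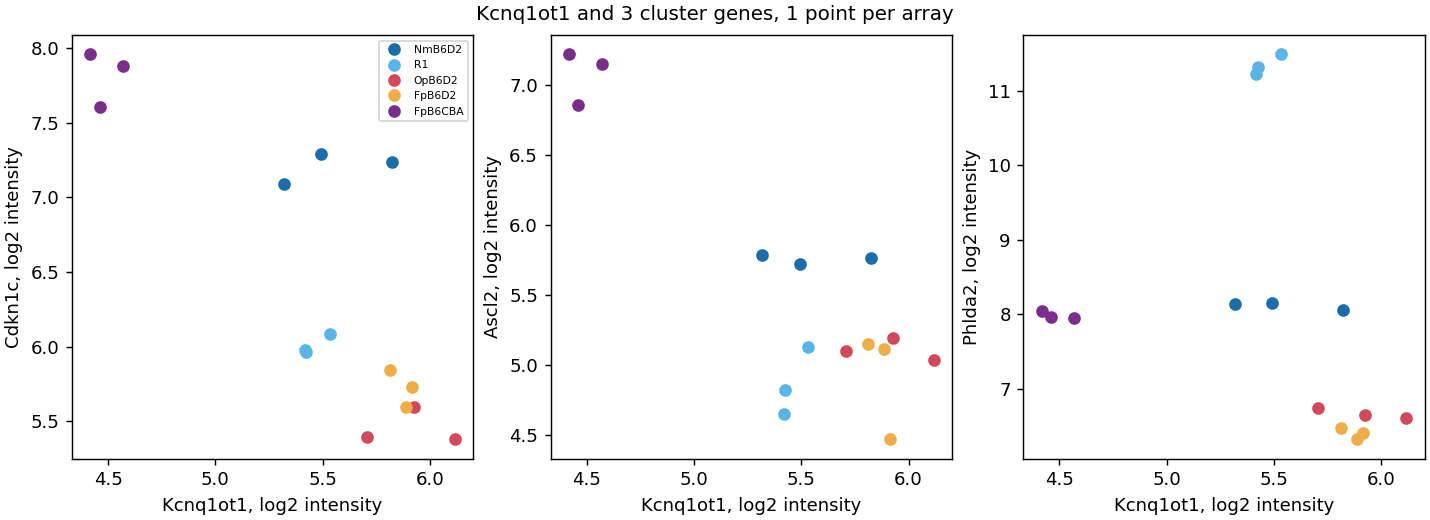
Log2 intensity of Kcnq1ot1 (horizontal axis) against that of Cdkn1c, Ascl2 and Phlda2 (vertical axes), 1 point per array, coloured by line, 3 arrays per line. The FpB6CBA arrays lie apart at the left, with Kcnq1ot1 between 4.42 and 4.57; among the other 4 lines Cdkn1c and Phlda2 ranged widely while Kcnq1ot1 stayed between 5.32 and 6.12.

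Slc22a18, an organic cation transporter-like membrane protein, gave different answers on its 2 probe sets. The brighter one (1427531_a_at) had line means of 6.15 ± 0.23 (SD, n = 3) in FpB6CBA, 6.10 ± 0.12 in R1, 5.99 ± 0.06 in NmB6D2, 5.94 ± 0.10 in FpB6D2 and 5.70 ± 0.19 in OpB6D2, a spread of 0.45 log2 units that was under the fold minimum (F-test adjusted p = 0.015). The other probe set (1417809_at) gave the lines the same order with a spread of 1.60 (adjusted p = 3.4e-07), from 5.43 in FpB6CBA and 5.07 in R1 through 4.54 in NmB6D2 and 4.16 in FpB6D2 to 3.83 in OpB6D2. On it FpB6CBA was higher than FpB6D2 by 1.27 log2 units (adjusted p = 2.1e-06) and at least 2.95-fold higher than OpB6D2, whose mean was below the filter value, and OpB6D2 was at least 2.30-fold lower than R1.

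The 3 Ascl2 probe sets agreed that FpB6CBA was highest, and NmB6D2 next. FpB6CBA exceeded NmB6D2 by 1.31, 1.34 and 1.05 log2 units on them, called each time. Both dimmer probe sets also called FpB6D2 lower than NmB6D2, and 1432018_at called R1 lower as well, but these means lay below the filter value. As bounds, FpB6D2 was at least 2.09-fold lower on 1422396_s_at, and FpB6D2 and R1 were at least 1.44-fold lower on 1432018_at, a bound under the fold minimum. Of the 6 Kcnq1ot1 probe sets, 1457781_at was again lowest in FpB6CBA, at 3.55 ± 0.27 (SD, n = 3) against 4.31 to 4.62 in the other lines, and called against FpB6D2 (at least 1.69-fold, adjusted p = 7.9e-06). The other 4 Kcnq1ot1 probe sets were under the filter value on every array, with a highest value of 3.14, and were not tested. Counted by probe set, 8 of the 14 tested ones were called by the F-test, beside 31.9% of all 24524 tested probe sets.

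**Figure D3:**
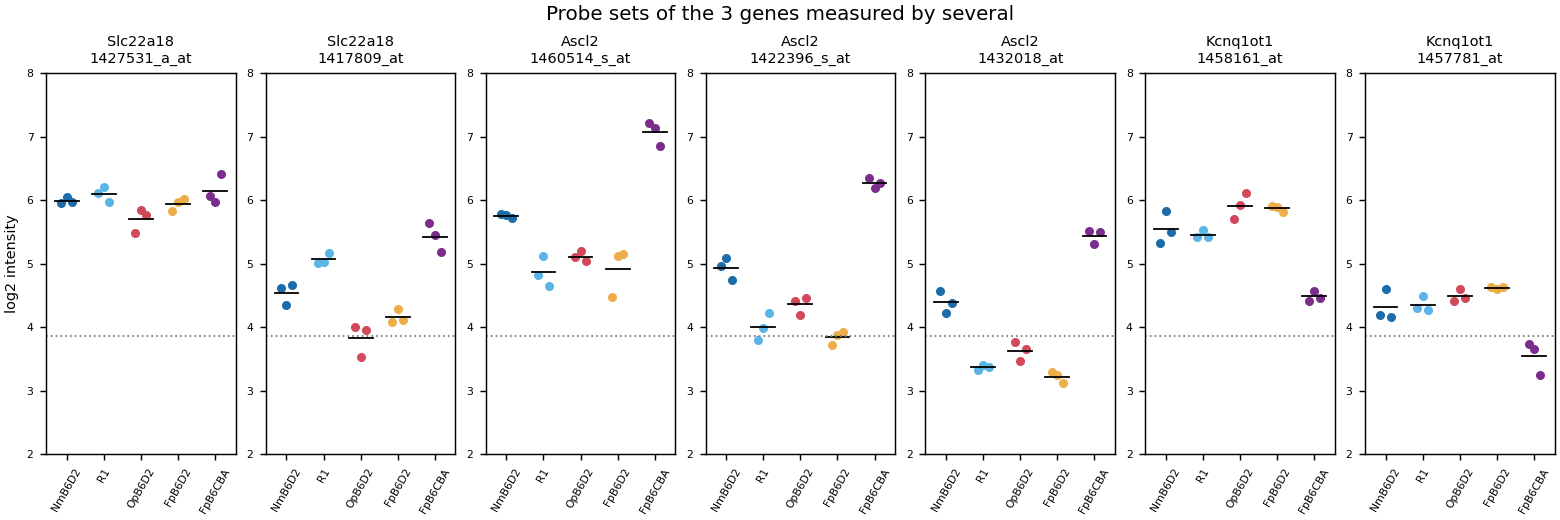
Log2 intensity (vertical axis) of the 7 tested probe sets of Slc22a18, Ascl2 and Kcnq1ot1 on the 15 arrays, by line (horizontal axis); points are arrays, bars are means of 3 arrays and the dotted line is the filter value. FpB6CBA was highest on all 3 Ascl2 probe sets and lowest on both Kcnq1ot1 probe sets, while the lines were spread widely on only 1 of the 2 Slc22a18 probe sets.

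The line means of the remaining members differed by less than 2-fold. In Cd81 and Tssc4 the spread was above the median of all tested genes, 0.74 log2 units. Cd81, a tetraspanin of the cell surface, and Tssc4, a protein of spliceosome assembly, passed the F-test with spreads of 0.80 (adjusted p = 3.1e-08) and 0.94 log2 units (adjusted p = 2.6e-08), both under 2-fold. Cd81 read 11.34 ± 0.06 (SD, n = 3) in R1, 11.08 ± 0.02 in FpB6D2, 11.05 ± 0.06 in FpB6CBA, 10.78 ± 0.04 in OpB6D2 and 10.54 ± 0.03 in NmB6D2. Tssc4 read 7.69 ± 0.07 in R1, 7.44 ± 0.08 in FpB6D2, 7.35 ± 0.03 in OpB6D2, 7.03 ± 0.03 in NmB6D2 and 6.75 ± 0.09 in FpB6CBA. Both were highest in R1, and in Cd81 FpB6D2 and FpB6CBA did not differ beyond their spread (adjusted p = 0.73), nor did FpB6D2 and OpB6D2 in Tssc4 (adjusted p = 0.24).

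Nap1l4, a histone chaperone, had line means between 9.34 in FpB6D2 and 9.55 in R1 (F-test adjusted p = 0.036), a spread of 0.21. Kcnq1, the pore-forming subunit of a voltage-gated potassium channel, had means between 3.73 in OpB6D2 and 4.01 in FpB6CBA (adjusted p = 0.06). Osbpl5, an oxysterol-binding protein family member, had means between 3.79 in FpB6D2 and 4.13 in OpB6D2 (adjusted p = 0.18). Values of Kcnq1 and Osbpl5 lay on both sides of the filter value of 3.864, so these arrays could have missed a difference between lines in either.

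The members called differed between the parthenogenetic lines. Against NmB6D2, 2 of the 10 members were called in OpB6D2, beside 5.84% of all tested genes called in either direction, and both of them, Cdkn1c and Phlda2, were lower. In FpB6D2 the same 2 genes were called and lower, beside 10.7% of all genes. In FpB6CBA 2 other members were called, beside 4.20% of all genes, Ascl2 as higher and Kcnq1ot1 as lower.

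The fertilised R1 line differed from NmB6D2 by 2 called members, Phlda2 as higher and Cdkn1c as lower, beside 12.9% of all tested genes. Against R1, Phlda2 was the single member called in OpB6D2 (10.2% of all genes called) and in FpB6D2 (13.3%), lower each time. In FpB6CBA 3 members were called against R1 (18.2%), Phlda2 as lower and Cdkn1c and Ascl2 as higher. These comparisons share the arrays of NmB6D2 or of R1 and are not independent of one another.

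Among the parthenogenetic lines, FpB6D2 and OpB6D2, which share the cross and differ in how their oocytes were grown, had 0 of the 10 members called by limma, beside 3.75% of all tested genes. At an unadjusted p under 0.05 there were 5 of the 10 members, beside 57.1% of all tested genes. An adjusted p under 0.05 at any fold was reached by 3, beside 52.0%, namely Cdkn1c (0.27), Phlda2 (-0.27) and Cd81 (0.30, FpB6D2 minus OpB6D2). Between FpB6CBA and OpB6D2, 4 of the 10 members were called, beside 10.0% of all genes, with Cdkn1c, Phlda2 and Ascl2 higher and Kcnq1ot1 lower in FpB6CBA. The same 4 members were called in the same directions against FpB6D2 (11.2%), the follicle-culture line of the other cross.

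**Figure D4:**
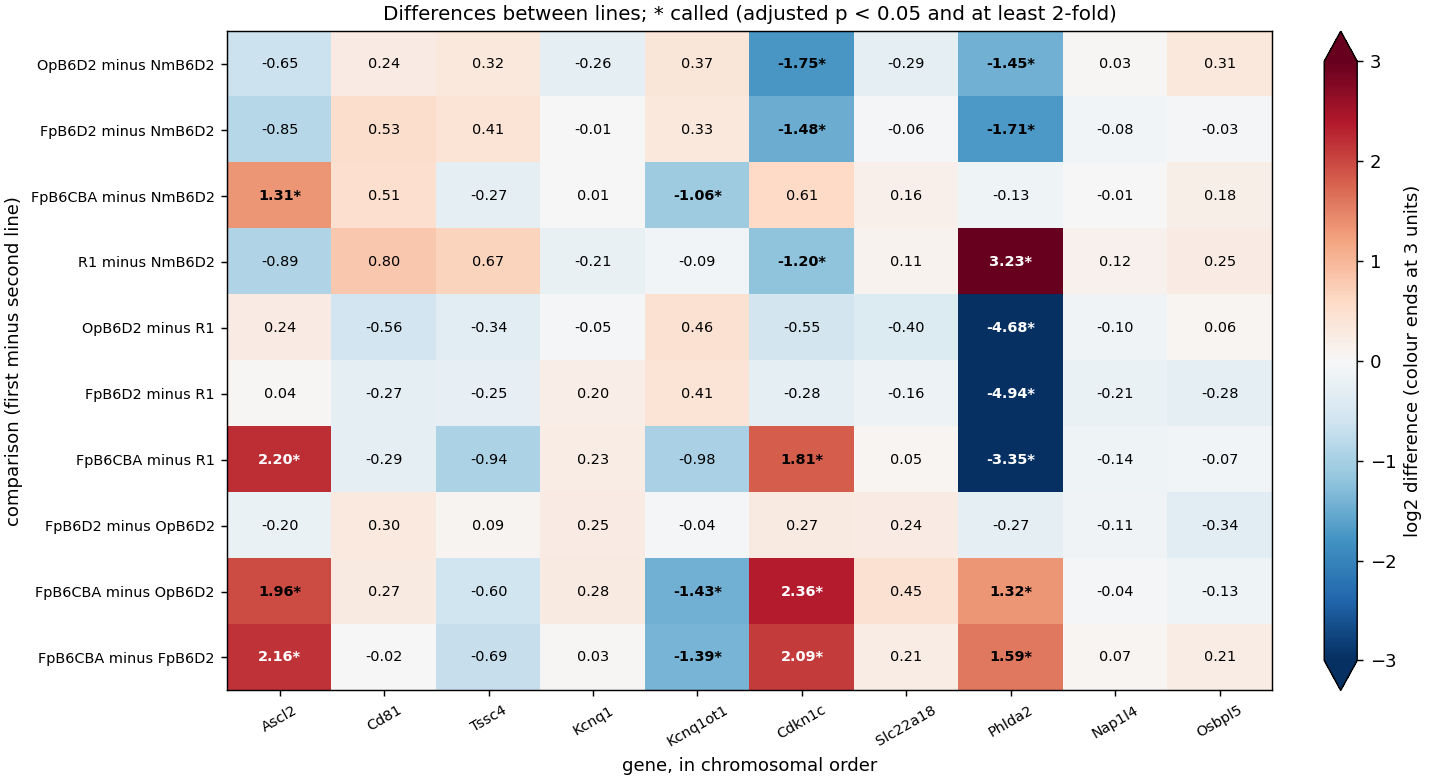
Log2 differences between lines for the 10 cluster genes (horizontal axis, chromosomal order) in all 10 comparisons (vertical axis, first line minus second); the colour scale ends at 3 log2 units in either direction and an asterisk marks an adjusted p under 0.05 with at least 2-fold. Asterisks fall on Ascl2, Kcnq1ot1, Cdkn1c and Phlda2 only, and the FpB6D2 minus OpB6D2 row has none.

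With the line as the replicate, 3 parthenogenetic against 2 fertilised, limma called 0 of the 10 members and 0% of the 12813 genes, of which 606 had an unadjusted p under 0.05. Phlda2 was the single member among those 606 genes. Its mean was 7.02 in the parthenogenetic and 9.73 in the fertilised lines, a log2 difference of -2.71 ± 1.04 SE (limma adjusted p = 0.92). That value moved with the fertilised line kept: it was -1.10 without R1 and -4.32 without NmB6D2. Cdkn1c had a mean of 6.33 in the parthenogenetic and 6.61 in the fertilised lines, and Kcnq1ot1 5.42 and 5.50, with lines that overlapped for both.

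Of a list of 17 genes next to the cluster on chromosome 7, 15 were measured by a probe set of their own and 12 were tested. The F-test over the lines called 4 of the 12, and the median spread was 0.84 log2 units. Among all tested genes 32.9% were called and the median spread was 0.74, which also serves as background for the lists below. Igf2, whose product drives fetal growth and which the paternal chromosome expresses under another imprinting control region, read 9.73 in NmB6D2, 11.34 in R1, 6.09 in OpB6D2, 5.89 in FpB6D2 and 7.06 in FpB6CBA (adjusted p = 1.9e-12). It was called lower in all 3 parthenogenetic lines against either fertilised line, which held for none of the 10 members. Tnfrsf22, a decoy receptor gene, was highest in FpB6CBA (6.05) and lowest in R1 (4.32). Dhcr7, which encodes the last enzyme of cholesterol synthesis, read 8.90 in FpB6CBA and 8.88 in NmB6D2 and between 7.65 and 8.29 in the others, and Nadsyn1, an enzyme of NAD synthesis, was highest in FpB6CBA (6.29) and lowest in R1 (4.90).

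Igf2r and Grb10, growth-restraining imprinted genes of other chromosomes, were read beside the cluster. Igf2r, the receptor that clears Igf2, read 7.55 in NmB6D2, 7.95 in R1, 7.38 in OpB6D2, 6.46 in FpB6D2 and 7.54 in FpB6CBA (F-test adjusted p = 2.4e-07). Grb10, an adaptor that dampens insulin signalling, read 11.11 in NmB6D2 and 10.76 in R1 against 9.33 in OpB6D2, 8.69 in FpB6D2 and 9.53 in FpB6CBA (adjusted p = 1.1e-11).

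Of 18 genes for silencing and for keeping imprints, all tested, 6 were called by the F-test, beside 32.9% of all tested genes. The median spread was 0.65 log2 units. Zfp57, a zinc finger protein that protects methylation at imprinting control regions, was lowest in FpB6CBA, at 6.50 ± 0.27 (SD, n = 3), and highest in OpB6D2 (8.88) and FpB6D2 (8.85), with 7.84 in NmB6D2 and 8.03 in R1. FpB6CBA was lower than OpB6D2 by a log2 difference of -2.38 (adjusted p = 9.5e-09) and lower than NmB6D2 by -1.34 (adjusted p = 5.8e-06). Ehmt2, a histone methyltransferase that acts on the paternal copy of the cluster in the placenta, read 10.75 in NmB6D2 and 10.44 in FpB6CBA against 8.69 in R1, 9.02 in FpB6D2 and 9.55 in OpB6D2. Dppa3, an oocyte factor that shields maternal methylation, was low in R1 alone (4.81 against 7.40 to 8.01), and Cbx7, a Polycomb subunit, ran from 7.56 in FpB6CBA to 8.79 in NmB6D2.

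The other kinase inhibitors of the CIP/KIP and INK4 families, 6 genes all tested, had 2 called and a median spread of 0.97 log2 units. Cdkn1b, the nearest relative of Cdkn1c among these, was highest in NmB6D2 (7.86) and lowest in FpB6D2 (5.92), with 6.96 in FpB6CBA and 6.89 in OpB6D2. Cdkn2a was highest in OpB6D2 (6.26) and lowest in FpB6CBA (4.38). Neither had the line order of Cdkn1c.

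Among 14 cyclins, kinases and their substrates at G1 and S phase, 6 were called, with a median spread of 0.97 log2 units. Cdk6 was high in R1 alone (7.14 against 4.78 to 5.39), Ccne2 was lowest in FpB6CBA (4.74) and highest in R1 (6.22), and E2f1 (6.81) and Ccne1 (9.15) were lowest in R1. Of 26 paralogues and binding partners of the members, 21 were tested and 6 called, with a median spread of 0.74 log2 units. Phlda1, a relative of Phlda2, was also highest in R1 (8.93 against 7.65 to 8.17). Osbpl10 was highest in FpB6CBA (6.35), Nap1l2 lowest there (3.25), and Tcf3, a dimer partner of Ascl2, lowest in FpB6D2 (7.22).

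Tested genes outside the cluster, with clone and predicted-gene names left out, were ranked by Pearson correlation over the 15 arrays. Those most like Cdkn1c were Tinagl1 (r = 0.991), Fstl3 (0.986), Rhbdd1 (0.984), G0s2 (0.983) and Kdf1 (0.981). For Phlda2 they were Gnas (0.987), Sdc4 (0.985), Cxadr (0.985), Mylip (0.985) and Irf1 (0.981). The 15 arrays come from 5 lines, so each r describes mainly 5 line means, and none was tested. Tinagl1, for example, read 9.10 in FpB6CBA, 8.45 in NmB6D2 and between 6.19 and 6.68 in the other lines, and Sdc4 read 9.27 in R1, 7.04 in FpB6CBA, 5.44 in OpB6D2 and 5.53 in FpB6D2.

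Markers of other cell types moved with the lines as well, and in bulk RNA fewer cells of a type and less RNA per cell cannot be told apart. All 6 ES cell markers were above the filter value in every line. Their summed linear intensities were 10910 to 11850 in FpB6CBA and 12630 to 15710 in the others. The F-test called 2 of the 6, Nanog and Zfp42. Nanog was called lower in FpB6CBA than in FpB6D2 (log2 difference -1.59), OpB6D2 (-1.48) and R1 (-1.17), but not against NmB6D2 (-0.62). Zfp42 was called higher in R1 than in every other line, with a log2 difference of 2.67 for R1 minus NmB6D2. The 10 trophoblast markers summed to 5850 to 6396 in NmB6D2, 5093 to 5706 in R1 and 4379 to 5179 in FpB6CBA, the lines with higher Phlda2, and to 982.6 to 1124 in OpB6D2 and 1721 to 1804 in FpB6D2. Of the 9 tested, 8 were called by the F-test. In R1 most of the sum came from Krt8, Krt18 and Eomes (10.08 against 7.12 to 7.49 elsewhere). Krt8 ran from 7.73 in OpB6D2 to 11.24 in NmB6D2 and Krt18 from 7.72 to 11.28, both epithelial keratins that other cells express too. Tpbpa, the defining spongiotrophoblast marker, was below the filter value in all 5 lines, and Elf5, a trophoblast stem cell factor, was above it in NmB6D2 alone (6.95). R1 was the lowest line in Hand1 (4.48 against 5.23 to 7.25) and Tfap2c (7.05 against 7.70 to 8.51). In Krt7 it was near OpB6D2 and below the other lines. The Krt7 log2 difference was -3.77 for R1 minus NmB6D2 and 3.08 for FpB6CBA minus R1. For FpB6D2 minus R1 it was 1.11, and for OpB6D2 minus R1 it was -0.31. The sum of R1 thus does not stand for the whole list.

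The 7 primitive endoderm markers were all called and summed to 843.4 to 985.3 in FpB6CBA, the line highest in Cdkn1c and Ascl2, against 264.5 to 592.6 in the others. FpB6CBA was the highest line in 4 of the 7, namely Dab2 (5.82 to 7.02 in the other lines), from which most of the sum came, Gata6 (6.90), Foxa2 (5.49) and, by little, Sox17 (6.31 against 6.21 in R1). Gata4 (7.40 against 5.51 in FpB6CBA) and Pdgfra (6.93 against 6.41) were highest in R1, and Sox7 was highest in FpB6D2 (6.58 against 5.18). R1, the line highest in Phlda2, had the highest sums of fibroblast markers (2137 to 2250 against 689.6 to 1426, 8 of 8 tested called) and of mesoderm markers (575.7 to 652.9 against 50.13 to 67.32, 3 of 3 called). Of the 8 tested fibroblast markers R1 was highest in 6, Col1a1 (9.17) among them, lowest in Thy1 (5.95 against 6.24 to 7.46) and below FpB6CBA in Dcn (4.79 against 5.97). The part of these cell types in the differences of the cluster genes was not tested.

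Control probes on the arrays also differed by line. Hybridisation controls averaged 10.16 in FpB6CBA and 10.05 in FpB6D2 against 9.49 to 9.57 in the others, poly-A controls 8.30 and 7.75 against 7.37 to 7.51, and the 3′ minus 5′ signal of actin, a sign of RNA integrity, 0.70 and 0.63 against 0.51 to 0.53 (all log2). FpB6CBA replicate 3 had the highest poly-A value, 8.85. Arrays of a line correlated at 0.9928 to 0.9978 over all probe sets and arrays of different lines at 0.9099 to 0.9776, so every array was nearer to its own line than to any other. The part of these technical values in the differences was not tested. The 4 calls of FpB6CBA against OpB6D2 and the 4 against FpB6D2 kept their number whichever array was left out. Leaving out an array cannot address a technical difference that all 3 arrays of a line share.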

How the data were processed

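Total RNA of 5 ES cell lines, 3 arrays each, was hybridised to an Affymetrix mouse array. Each deposited value is the log2 signal of a probe set, made with RMA in the affy package per the submitters' processing notes. The log base is not given in the sources used here and was taken from the range of the values, 1.99 to 13.961. RMA smooths low signals, so differences near the bottom of the scale are understated.

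Probe sets with a single gene symbol were used (34945 of 45101), named through Entrez gene IDs in RefSeq, and 932 with several symbols, 9160 with none and 64 controls were left out. Each gene was represented by its probe set of highest mean. Of 18193 genes, 12813 reached 3.864 on at least 3 arrays and were tested.

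Lines were compared with limma 3.58.1 (R 4.3.3), 1 fit over all 15 arrays with a mean per line, contrasts and an F-test, and Benjamini-Hochberg adjustment over all tested genes. Parthenogenetic and fertilised lines were compared on 5 line means. The same fit was run on all 24524 tested probe sets. The code was tested on simulated data. Where a line mean was below the filter value, its fold is given as a bound against that value.

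Members and gene lists were chosen with earlier results of these data known. The text names all members and, from each list, at most 4 genes with the largest range among those called by the F-test. It also names Igf2, Igf2r and Grb10, and markers fixed by cell type. The 5 genes most correlated with Cdkn1c and with Phlda2 are named as well, with clone and predicted-gene names left out. H19 was to be named too, but its probe set carries several symbols and was not used here. Array titles number 13 of the 15 arrays. The 34 alternatives covered filters, probe set choice, normalisation, variance model, thresholds, left-out arrays and lines, and the replicate block, and 1 of them was added after seeing the data.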

Additional observations from a re-analysis of the deposited data

How the results depend on the processing

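In all, 2650 differences between lines were recomputed under alternatives other than dropping the fold minimum. Of these, 2638 kept their side of the threshold, 1 was lost, 11 were gained and 0 called ones reversed. Members with no tested probe set under an alternative are not in this tally. Among the 2638, 42 uncalled differences changed sign, none larger than 0.23 in size. With no fold minimum, the members of 10 that passed, with the share of all tested genes, were 7 (49.7%) for OpB6D2 minus NmB6D2, 6 (60.3%) for FpB6D2 minus NmB6D2, 5 (50.3%) for FpB6CBA minus NmB6D2 and 5 (62.9%) for R1 minus NmB6D2. They were 6 (59.4%) for OpB6D2 minus R1, 6 (66.4%) for FpB6D2 minus R1, 7 (70.4%) for FpB6CBA minus R1, 3 (52.0%) for FpB6D2 minus OpB6D2, 8 (62.7%) for FpB6CBA minus OpB6D2, 5 (60.3%) for FpB6CBA minus FpB6D2 and 8 (87.0%) for the F-test. FpB6CBA minus NmB6D2 had 1 called member with the mean of all probe sets, because the mean of Kcnq1ot1 fell below the filter. Kcnq1ot1 was then not tested in any comparison, so its calls in FpB6CBA against OpB6D2 and FpB6D2 were also absent under that alternative. OpB6D2 minus R1 had 2 without probe sets marked _s, _x or _a, since Slc22a18 then rested on 1417809_at, at least 2.30-fold lower in OpB6D2, whose mean is below the filter value. With each array left out in turn, FpB6CBA minus NmB6D2 had 1 to 2 called members, R1 minus NmB6D2 had 2 to 3 and FpB6CBA minus R1 had 3 to 4, and the other counts did not move.

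The replicate numbers did not pair the arrays: over 12 same-number pairs the deviations from line means correlated at -0.181 to 0.127 (median 0.0175, against 0.0039 for other pairs), and 1 pair was over 0.1. The fit with the replicate block leaves out the 2 arrays with no number, and in it Kcnq1ot1 in FpB6CBA minus R1 reached -1.03 (limma adjusted p = 0.0012) and was called. Without those 2 arrays and with no block, an alternative chosen after seeing the data, it was -1.02 (limma adjusted p = 1.1e-05) and was called too, and neither fit changed another call. With lines as replicates, leaving out any line or treating the line as a random block called no member. In the random block fit Phlda2 was just over the threshold (limma adjusted p = 0.061), against 0.92 in the fit of line means.

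Median centring and quantile normalisation moved no call. Kcnq1, Osbpl5 and part of the Kcnq1ot1 and Slc22a18 probe sets lie near the filter value, where RMA compresses differences. Each combination of origin and cross is represented by 1 line, so the arrays do not show how another line of that origin would read.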
